A study of Mus musculus with 20 samples.

Results

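The genes described here are those of ER protein folding and the unfolded protein response, the programme by which a cell matches the folding capacity of its endoplasmic reticulum (ER) to the load of secretory and membrane proteins. The list held 34 mouse genes. A gene was read from the probe set that the platform annotation assigns to its symbol alone, and where several existed the one of highest mean over all arrays was taken. This gave a value for 33 of the 34 genes, out of 22180 genes with a value in the whole series. All 33 were bright enough to be tested, among 16638 tested genes. The disulfide isomerase gene Pdia4 has no value here, because its probe set also carries a second symbol. By role they were chaperones of the Hsp70 and Hsp90 type with their co-factors (9 measured genes), lectin chaperones (2), disulfide and prolyl isomerases (5), ER-associated degradation (9), the translocon (4), and the stress sensors with the transcription factor Xbp1 (4).

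In this response, the Hsp70 chaperone BiP, encoded by Hspa5, binds unfolded chains in the ER lumen and also the lumenal parts of the sensors IRE1, PERK and ATF6, encoded by Ern1, Eif2ak3 and Atf6. When unfolded protein accumulates, IRE1 splices the mRNA of Xbp1, ATF6 is cleaved into a transcription factor, and PERK phosphorylates the initiation factor eIF2alpha, which slows translation and favours that of Atf4. Spliced XBP1 and cleaved ATF6 raise chaperone, degradation and translocation genes, and the ATF4 arm raises Ddit3, Trib3, Chac1 and Ppp1r15a. Myeloid progenitors make large amounts of granule proteins, which are folded in the ER.

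The study set CreER-Raptor mice, whose floxed Rptor allele encodes Raptor, the defining subunit of the kinase complex mTORC1, against WT mice. Total RNA came from bone marrow cells sorted from female mice on a C57BL/6 background, as common myeloid progenitors (CMP; 3 CreER-Raptor and 3 WT arrays), granulocyte-macrophage progenitors (GMP; 3 and 3), and lineage-negative cells kept for 12 hours in vitro with macrophage colony-stimulating factor at 10 ng/ml (Lin- + MCSF; 4 and 4). CreER is a Cre recombinase fused to an estrogen receptor domain. Which promoter drives it, whether and when it was induced, whether WT mice carried it and how old the mice were are not given in the sources used here. Nor is it given whether the arrays of a group came from separate animals, and the spread behind each p-value may therefore be a technical one. Between 1 and 5 ng of RNA was amplified and hybridized per array, and levels are log2 signals as deposited, between 1.77 and 13.2.

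The Rptor probe set did not differ beyond the test's threshold in any population, and it is not known here whether it lies in the floxed part. It averaged 8.34 in CreER-Raptor and 8.64 in WT CMPs (change -0.29 ± 0.13, limma adjusted p = 0.163), 9.11 and 9.28 in GMPs (-0.17 ± 0.13, adjusted p = 0.465) and 6.95 and 7.13 in Lin- + MCSF cells (-0.18 ± 0.11, adjusted p = 0.305). The progenitor genes Kit and Mpo were bright in every group, with group means of 8.94 to 11.14 and 12.1 to 12.85, but the progenitor markers were not matched between genotypes. Of the 6 (Kit, Cd34, Fcgr3, Mpo, Flt3 and Cebpa), Cd34 was lower by 1.08 ± 0.15 in CreER-Raptor CMPs (adjusted p = 2.59e-05) and by 1.37 ± 0.15 in CreER-Raptor GMPs (1.27e-06). In CMPs Fcgr3 (-0.64 ± 0.14, adjusted p = 0.00318) and Mpo (-0.31 ± 0.09, 0.0293) were also lower and Kit higher (0.42 ± 0.12, 0.0202). Flt3 was higher in GMPs (1.30 ± 0.18, adjusted p = 2.55e-05), and Kit was higher in Lin- + MCSF cells (0.99 ± 0.10, 8.28e-07). Their part in the results below was not tested. Fcgr3, a marker of the GMP gate, averaged 10.48 and 10.55 in CreER-Raptor and WT GMPs, against 8.83 and 9.47 in CreER-Raptor and WT CMPs. The residual spread of single arrays around their group mean was 0.109 to 0.168 in CMPs and GMPs and 0.171 to 0.236 in Lin- + MCSF cells.

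Several of these genes carry the ER stress response element (ERSE) in their promoters, the sequence through which ATF6 and XBP1 are known to act. Its copies are printed for the genes that carry it, which are some of the chaperone genes and some others. The letters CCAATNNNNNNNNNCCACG were searched on both strands of RefSeq promoters (assembly GRCm38.p6), each running from 250 bases before to 50 bases after a gene's start. Of 34 genes, 29 had a promoter in the table. The element lay in 9 of these 29 (31.0%), against 39 of all 32544 promoters (0.12%). Capitals mark the fixed letters, each copy is written 5′ to 3′ on its own strand, and positions are counted back from the gene's first base.
Hspa5, -65 to -47, chr2:34772025-34772043, plus strand: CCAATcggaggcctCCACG
Hsp90b1, -212 to -194, chr10:86705638-86705656, in the direction of the gene on the minus strand: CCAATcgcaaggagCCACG
Hsp90b1, -107 to -89, chr10:86705533-86705551, against the direction of the gene: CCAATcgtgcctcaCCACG
Calr, -162 to -144, chr8:84847075-84847093, against the direction of the gene on the minus strand: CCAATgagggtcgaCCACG
Canx, -145 to -127, chr11:50325800-50325818, in the direction of the gene on the minus strand: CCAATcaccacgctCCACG
Creld2, -126 to -108, chr15:88819520-88819538, against the direction of the gene on the plus strand: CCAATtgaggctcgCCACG
Pdia6, -98 to -80, chr12:17266491-17266509, plus strand: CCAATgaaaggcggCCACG
Dnajc3, -105 to -87, chr14:118937827-118937845, plus strand: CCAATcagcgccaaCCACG
Syvn1, -44 to -26, chr19:6046532-6046550, plus strand: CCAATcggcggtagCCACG
Derl3, -156 to -138, chr10:75893242-75893260, against the direction of the gene on the plus strand: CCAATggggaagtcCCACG

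Only exact matches to the letters were searched, so copies that differ by a letter are not counted or marked. Hsp90b1 was the gene with 2 exact copies, and its 250 bases before the start (chr10:86705445-86705694, minus strand) are shown with both in capitals. The second is on the opposite strand and therefore read as CGTGG and ATTGG. The same stretch of Hspa5 (chr2:34771840-34772089, plus strand) is shown beside it with its single exact copy in capitals.
Hsp90b1: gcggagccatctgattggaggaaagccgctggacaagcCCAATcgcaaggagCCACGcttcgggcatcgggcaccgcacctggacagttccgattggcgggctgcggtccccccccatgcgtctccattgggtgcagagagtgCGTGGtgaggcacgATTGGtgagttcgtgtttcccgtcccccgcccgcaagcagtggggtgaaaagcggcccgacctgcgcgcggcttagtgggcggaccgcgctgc
Hspa5: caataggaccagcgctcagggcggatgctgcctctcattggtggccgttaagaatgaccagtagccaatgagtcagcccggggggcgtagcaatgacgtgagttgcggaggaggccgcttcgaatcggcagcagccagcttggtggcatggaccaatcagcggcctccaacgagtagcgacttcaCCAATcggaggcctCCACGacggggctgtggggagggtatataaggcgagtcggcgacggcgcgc

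A shorter relative, ERSE-II (ATTGGNCCACG), was found in the promoters of Dnajb11 and Herpud1, 2 of 29 (6.9%), against 0.0369% of all promoters. The copy of Dnajb11 reads ATTGGcCCACG and lies 8 to 18 bases after the start, and that of Herpud1 reads ATTGGgCCACG at -52 to -42. The XBP1 element UPRE (TGACGTGG) was in 0 of the 29 windows and in 0.682% of all promoters. The core CCACG, which ERSE and ERSE-II contain and which UPRE contains on its opposite strand, was in 86.2% of the 29 and in 33.0% of all. Promoters of Atf6, Manf, Hyou1, Derl1 and Sec61a1 were not analysed here.

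In CMPs, 10 genes of ER folding were lower in CreER-Raptor than in WT cells, among them the sensor gene Ern1 and 6 of the chaperones and co-factors. These 10 were 30.3% of the 33 genes, and 0 were called higher, where 5.44% of all tested genes were called lower and 6.01% higher (limma, Benjamini-Hochberg adjusted p under 0.05). The median change of the 33 genes was -0.23 on the log2 scale, against -0.01 over all tested genes, and 30 of the 33 (90.9%) had a change below 0, against 52.2% of all. CreER-Raptor and WT arrays did not overlap for 19 of the 33 genes (57.6%), all of them lower in CreER-Raptor. Of all genes, 14.9% were lower and 15.9% higher without overlap.

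The largest change was that of Ern1, the gene of the sensor IRE1. Its level was 8.89, 8.58 and 9.12 in CreER-Raptor CMPs, against 9.94, 9.86 and 9.95 in WT CMPs, so every CreER-Raptor array lay below every WT array. It fell by 1.05 ± 0.14 (SE), 0.482-fold (adjusted p = 2.61e-05). The other sensors and Xbp1 did not pass the test: Xbp1 changed by 0.09 ± 0.11 (adjusted p = 0.739), Atf6 by -0.16 ± 0.11 (0.482) and Eif2ak3 by -0.03 ± 0.14 (0.946).

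Among the chaperones and co-factors, 6 of 9 fell, and the remaining 3 had values below 0. Sdf2l1, which works in the ER with the BiP co-chaperone Dnajb11, stood at 8.7, 8.78 and 8.73 in CreER-Raptor CMPs, against 9.57, 9.39 and 9.8 in WT CMPs. The genotypes were apart by more than either group's range, and the gene fell by 0.85 ± 0.14 (adjusted p = 0.000248). Creld2, an ER protein induced under folding stress, read 8.61, 8.76 and 8.67 in CreER-Raptor CMPs, against 9.25, 9.2 and 9.43 in WT CMPs, with no overlap, and fell by 0.61 ± 0.13 (adjusted p = 0.00191). Hyou1, a nucleotide exchange factor of BiP, read 8.62, 8.37 and 8.32 in CreER-Raptor CMPs, against 9.02, 8.89 and 9.21 in WT CMPs. It too had no overlap between genotypes and fell by 0.60 ± 0.13 (adjusted p = 0.00326).

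BiP itself followed. Hspa5 was at 9.69, 9.65 and 9.55 in CreER-Raptor CMPs, against 9.99, 10.05 and 10.25 in WT CMPs. All CreER-Raptor arrays were below the lowest WT array, and Hspa5 fell by 0.46 ± 0.12, 0.725-fold (adjusted p = 0.00969), a call that was lost without WT CMP replicate 3 (-0.39, adjusted p = 0.0706). Dnajb11, which delivers unfolded chains to BiP, averaged 7.63 in CreER-Raptor and 8.05 in WT CMPs and fell by 0.42 ± 0.12 (adjusted p = 0.0304). Hsp90b1, the Hsp90 of the ER, averaged 11.46 and 11.84 and fell by 0.39 ± 0.12 (adjusted p = 0.0353). These last calls are near the threshold: that of Hsp90b1 was lost when any 1 of the 6 CMP arrays was left out (adjusted p = 0.0521 to 0.133), and that of Dnajb11 when any but WT CMP replicate 2 was (0.0564 to 0.127). Dnajc3, a co-chaperone that inhibits PERK, changed by -0.43 ± 0.14 (adjusted p = 0.0535), Manf by -0.29 ± 0.12 (0.139) and Dnajb9 by -0.25 ± 0.17 (0.468), each with groups that did not overlap.

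The enzymes and lectins that act on glycoproteins and disulfides were called singly. Calr, the lumenal lectin chaperone calreticulin, read 10.65, 10.51 and 10.63 in CreER-Raptor CMPs, against 11, 11.1 and 11.29 in WT CMPs. The groups were separate, and Calr fell by 0.53 ± 0.10 (adjusted p = 0.000481). Its membrane-bound relative Canx changed by -0.04 ± 0.09 (adjusted p = 0.902). Of the isomerases, Pdia6 read 9.43, 9.38 and 9.27 in CreER-Raptor CMPs, against 9.98, 9.97 and 10.09 in WT CMPs. It fell by 0.65 ± 0.16 (adjusted p = 0.00785) with no overlap, and P4hb, Pdia3, Pdia5 and Ppib had changes between -0.23 and -0.15 that did not pass.

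ER-associated degradation, which removes misfolded proteins, contributed 1 called gene of 9. Edem1, a mannosidase-like protein that marks glycoproteins for degradation, read 9.23, 9.05 and 9.25 in CreER-Raptor CMPs, against 9.77, 9.7 and 9.89 in WT CMPs. Edem1 fell by 0.61 ± 0.11 (adjusted p = 0.000348) and its groups did not overlap, whereas its second, dimmer probe set gave -0.26 ± 0.12 (adjusted p = 0.18). The other 8 genes, among them those of the ubiquitin ligase Syvn1 and its partner Sel1l, had changes between -0.27 and 0.06. No translocon gene was called, with changes of -0.26 to -0.11 for Sec61a1, Sec61b, Ssr1 and Ssr3.

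**Figure D1:**
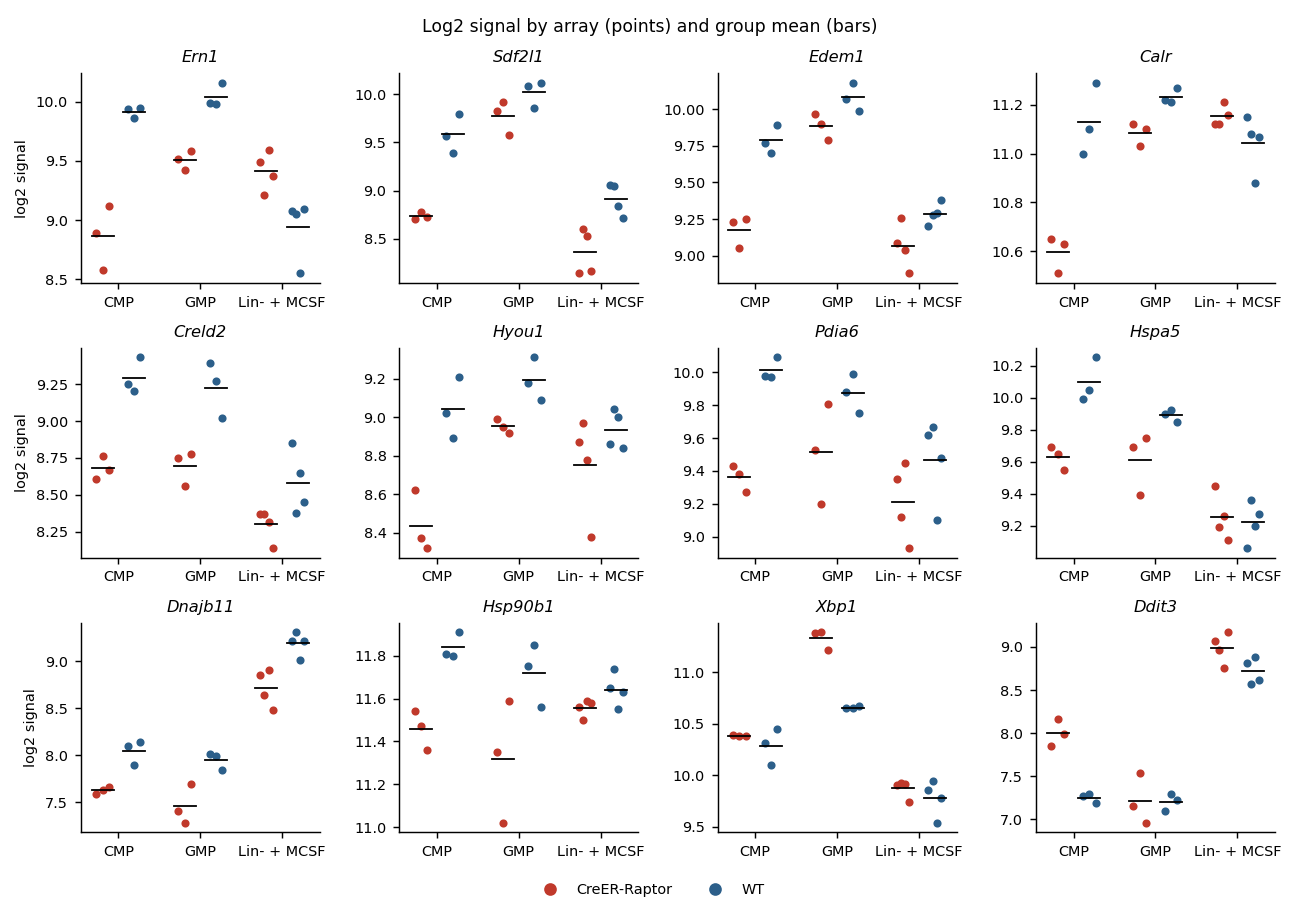
Log2 signal (vertical axes, which do not start at 0) of 11 genes of ER folding and of Ddit3 in every array, by population; points are arrays, CreER-Raptor left of WT, and bars are group means. In CMPs every CreER-Raptor point of Ern1, Sdf2l1, Edem1, Calr, Creld2, Hyou1, Pdia6 and Hspa5 lies below every WT point, while Ddit3 lies above, and in Lin- + MCSF cells Ern1 lies above.

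Genes with and without an ERSE copy were both among those that fell. In CMPs, 5 of the 9 measured genes with a copy were called lower (Hspa5, Hsp90b1, Creld2, Calr and Pdia6), with a median change of -0.43, against 4 of 19 without one, with a median of -0.22. In GMPs 2 of 9 were lower (median -0.28), against 2 lower and 1 higher of 19 (median -0.1). In Lin- + MCSF cells 0 of 9 were called (median -0.08), against 3 lower and 1 higher of 19 (median -0.07). The 19 genes without an exact ERSE copy include Dnajb11 and Herpud1, which carry ERSE-II. Dnajb11 was called lower in all 3 populations and Herpud1 in none. The difference between genes with and without the element was not tested.

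Markers of other cell types also differed by genotype in the same arrays. In CMPs, 5 of 7 primary granule genes were lower, and the mean level of the 7 was 10.26 to 10.38 in CreER-Raptor arrays, against 10.96 to 11.24 in WT arrays. Fcnb (-1.84) and Cebpe (-1.76) weighed most on this mean, and the median change of the 7 was -0.42. Monocyte genes were lower for 7 of 9 (7.38 to 7.54 in CreER-Raptor, against 8.68 to 8.77 in WT), and secondary granule genes for 4 of 8 (8.11 to 8.32, against 9.49 to 9.75). Erythroid genes were higher for 7 of 9 (9.21 to 9.86 in CreER-Raptor, against 8.11 to 8.32 in WT), and eosinophil genes lower for 2 of 4 (5.34 to 5.6, against 6.21 to 6.98). Of mast cell and basophil genes 1 of 7 was higher and 1 lower, of T and NK cell genes 1 of 6 was lower, and none of 6 plasmacytoid dendritic and 4 megakaryocyte genes was called. In RNA from a whole sorted population, fewer cells of a type and less RNA per cell cannot be told apart. The part of these shifts in the lower chaperone levels was not tested. The mean of 9 plasma cell and B cell markers was 4.61 to 4.85 in CreER-Raptor CMP arrays, against 4.99 to 5.16 in WT CMP arrays. In CMPs of both genotypes 5 of the 9 lay below the array median, and 2 of 8 tested were lower.

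In GMPs, Xbp1 was higher in CreER-Raptor than in WT cells, and Ern1 and 3 chaperone genes were lower. Of the 33 genes, 4 were called lower (12.1%) and 1 higher (3.03%), against 7.53% and 4.37% of all tested genes, so the shares were near the background. The median change was -0.14, against 0.02 over all genes, and 26 of the 33 (78.8%) were below 0, against 46.9% of all. Without overlap between genotypes, 12 of the 33 genes were lower (36.4%) and 2 higher (6.06%), where 16.2% of all genes stood on each side.

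Xbp1, the transcription factor gene whose mRNA IRE1 splices, was the member that rose. It read 11.38, 11.39 and 11.22 in CreER-Raptor GMPs, against 10.65, 10.65 and 10.67 in WT GMPs. The lowest CreER-Raptor array was above the highest WT array, and Xbp1 rose by 0.67 ± 0.11, 1.59-fold (adjusted p = 0.000223). The SD of Xbp1 was 0.1 in CreER-Raptor and 0.01 in WT GMPs, and 0.18 in WT CMPs. A probe set of the whole gene gives the summed level, and splicing was not measured. Ern1 went the other way: it read 9.52, 9.42 and 9.58 in CreER-Raptor GMPs, against 9.99, 9.98 and 10.16 in WT GMPs. Ern1 fell by 0.54 ± 0.14 (adjusted p = 0.017) with no overlap, and lost the call without CreER-Raptor GMP replicate 2 (0.0786) or WT GMP replicate 3 (0.0733).

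The chaperone genes that fell in GMPs were 3, all of them also lower in CMPs. Creld2 read 8.75, 8.56 and 8.78 in CreER-Raptor GMPs, against 9.39, 9.27 and 9.02 in WT GMPs. It fell by 0.53 ± 0.13 (adjusted p = 0.00711) and was at adjusted p = 0.0534 without WT GMP replicate 1. Dnajb11 read 7.41, 7.28 and 7.69 in CreER-Raptor GMPs, against 8.01, 7.99 and 7.84 in WT GMPs, and fell by 0.49 ± 0.12 (adjusted p = 0.012). Both had separate groups. Hsp90b1 read 11.35, 11.02 and 11.59 in CreER-Raptor GMPs, against 11.75, 11.85 and 11.56 in WT GMPs, where the highest CreER-Raptor array overlapped the lowest WT array. It fell by 0.40 ± 0.12 (adjusted p = 0.0279). Leaving out replicate 1 or 2 of either genotype ended the calls of Dnajb11 (adjusted p = 0.0503 to 0.0863) and Hsp90b1 (0.0647 to 0.216). The count of 5 called genes was 2 without CreER-Raptor GMP replicate 2 or WT GMP replicate 1, and 3 without CreER-Raptor GMP replicate 1 or WT GMP replicate 2.

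Several genes lower in CMPs did not pass in GMPs. Hspa5 averaged 9.61 in CreER-Raptor and 9.89 in WT GMPs (-0.28 ± 0.12, adjusted p = 0.133), Calr 11.08 and 11.23 (-0.15 ± 0.10, 0.372), and Sdf2l1 9.78 and 10.03 (-0.25 ± 0.14, 0.324). None of the isomerase genes (-0.36 to 0.12), degradation genes (-0.28 to 0.09) or translocon genes (-0.13 to -0.04) was called with the probe sets used. The second probe set of the degradation gene Derl2 gave -0.51 ± 0.13 (adjusted p = 0.0134). In GMPs this second probe set was the brighter one, at 6.45 in CreER-Raptor and 6.96 in WT cells, against 5.39 and 5.45. The one used had the higher mean over all arrays (6.94, against 6.89) through the cultures. There it read 9.2 in CreER-Raptor and 9.53 in WT cells, against 6.97 and 7.23. Of the markers, 0 of 7 primary granule genes were called in GMPs, with a mean of 11.29 to 11.54 in CreER-Raptor and 11.4 to 11.46 in WT arrays. Monocyte genes were lower for 8 of 9 (7.65 to 7.86 in CreER-Raptor, against 9.28 to 9.31 in WT) and erythroid genes higher for 4 of 9 (6.16 to 7.14, against 5.52 to 5.7). Plasma cell and B cell genes had a mean of 4.82 to 4.91 in CreER-Raptor and 4.97 to 5.06 in WT GMPs, with 5 of 9 below the array median. Of 8 tested, 2 were lower, Sdc1 (-0.74) and Cd79b (-0.53). The brightest of the 9 was Cd79b, at 7.42 in CreER-Raptor and 7.96 in WT GMPs. Of other granule-bearing cells, secondary granule genes were lower for 3 of 8, with Ltf at -3.53 and Camp at -2.97, and higher for 2 (8.78 to 8.96 in CreER-Raptor, against 9.37 to 9.84 in WT). Eosinophil genes were lower for 3 of 4, with Epx at -3.35 (6.62 to 6.76, against 7.99 to 8.66), and mast cell and basophil genes higher for 4 of 7, with Gata2 at 1.12 (8.99 to 9.21, against 8.53 to 8.6). Of megakaryocyte genes 1 of 4 was higher, and 0 of 6 plasmacytoid dendritic and 0 of 6 T and NK cell genes were called. The part of these marker shifts in the GMP results was not tested.

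**Figure D2:**
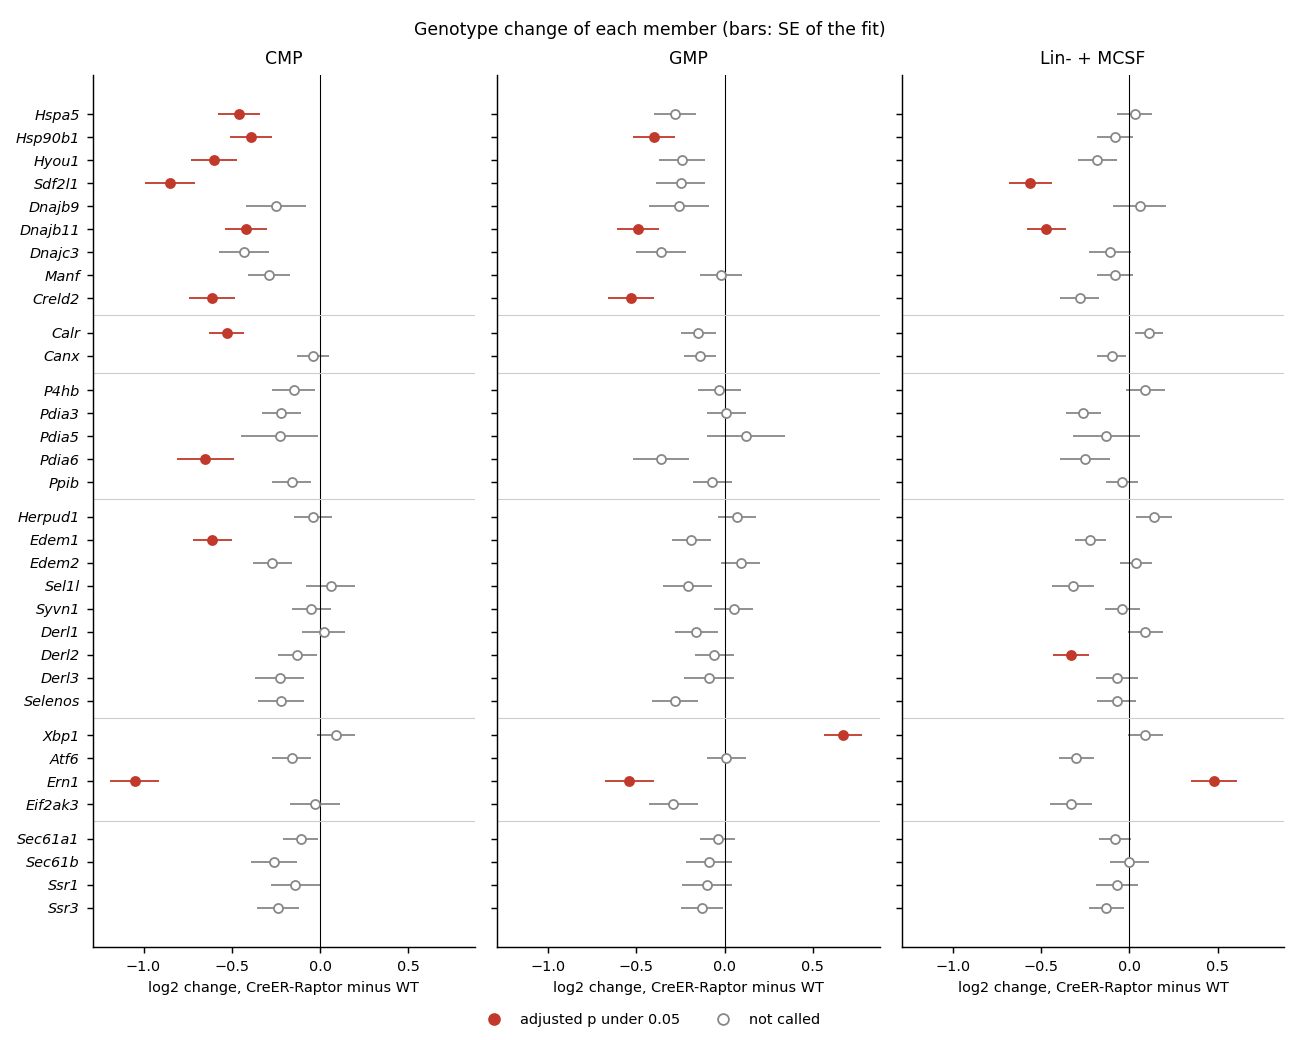
Genotype change of each of the 33 genes (horizontal axis, log2 CreER-Raptor minus WT, with the SE of the fit) in CMP, GMP and Lin- + MCSF cells, in blocks by role; filled points passed an adjusted p of 0.05. In CMPs 10 points are filled, all left of 0, with Ern1 at -1.05, whereas in Lin- + MCSF cells Ern1 lies at 0.48.

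In cultured Lin- + MCSF cells the BiP co-factors Dnajb11 and Sdf2l1 were lower and Ern1 was higher. Of the 33 genes, 3 were called lower (9.09%) and 1 higher (3.03%), against 5.73% and 6.82% of all tested genes, so these shares too lay near the background. The median change was -0.08, against 0.01 over all genes, and 23 of the 33 (69.7%) were below 0, against 47.5% of all. In 6 of the 33 genes (18.2%) CreER-Raptor arrays were lower without overlap and in 1 (3.03%) higher, where 6.45% and 7.45% of all genes were.

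Sdf2l1 read 8.14, 8.6, 8.53 and 8.16 in CreER-Raptor cultures, against 9.06, 9.05, 8.84 and 8.71 in WT cultures. The groups were apart, and Sdf2l1 fell by 0.56 ± 0.12 (adjusted p = 0.00445). Dnajb11 read 8.85, 8.64, 8.91 and 8.48 in CreER-Raptor cultures, against 9.22, 9.31, 9.01 and 9.22 in WT cultures. It fell by 0.47 ± 0.11 (adjusted p = 0.00593) without overlap, and was the 1 gene of the 33 called lower in all 3 populations. Derl2, a derlin of the channel that moves misfolded proteins out of the ER, read 9.26, 9.29, 9.05 and 9.21 in CreER-Raptor cultures, against 9.52, 9.68, 9.36 and 9.56 in WT cultures. Its groups did not overlap, and it fell by 0.33 ± 0.10 (adjusted p = 0.0276), which was lost without WT Lin- + MCSF replicate 2 (0.0819) or 4 (0.0587), without CreER-Raptor Lin- + MCSF replicate 3 (0.0869), and with its second probe set (-0.25, adjusted p = 0.163).

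Ern1 was the member that rose in culture. It read 9.49, 9.21, 9.59 and 9.37 in CreER-Raptor cultures, against 9.08, 9.05, 8.55 and 9.09 in WT cultures. Every CreER-Raptor array was above every WT array, and Ern1 rose by 0.48 ± 0.13, 1.39-fold (adjusted p = 0.0156). WT replicate 3 was lowest and weighed on this: without it the change was 0.34 (adjusted p = 0.0577), and without CreER-Raptor replicate 3 it was 0.42 (0.0517). The count of 4 called genes was 2 without CreER-Raptor Lin- + MCSF replicate 3.

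Hspa5 in culture averaged 9.25 in CreER-Raptor and 9.22 in WT cells (0.03 ± 0.10, adjusted p = 0.9), Hsp90b1 11.56 and 11.64 (-0.08 ± 0.10, 0.686) and Calr 11.15 and 11.04 (0.11 ± 0.08, 0.441). The sensors Eif2ak3 (-0.33 ± 0.12, adjusted p = 0.0788) and Atf6 (-0.30 ± 0.10, 0.0512) did not pass. The second probe set of Edem1 gave -0.32 ± 0.10 (adjusted p = 0.0403), against -0.22 ± 0.09 (0.129) for the one used. Monocyte genes were lower for 8 of 9 (8.12 to 8.23 in CreER-Raptor, against 9.55 to 9.85 in WT), erythroid genes higher for 6 of 9 (6.38 to 6.97, against 5.63 to 5.9), and primary granule genes called for 0 of 7. The mean of the plasma cell and B cell markers was 5.9 to 6.55 in CreER-Raptor and 5.97 to 6.49 in WT cultures, with 1 of 9 below the array median and 1 of 8 tested lower, Prdm1 (-0.75). T and NK cell genes were higher for 2 of 6, Cd3d (1.11) and Cd3g (0.92), with a mean of 7.17 to 7.73 in CreER-Raptor and 6.83 to 7.22 in WT cultures. Megakaryocyte genes were higher for 2 of 4, with Pf4 at 0.95 (6.64 to 6.99, against 6.2 to 6.64). Of 6 plasmacytoid dendritic cell genes, Klk1 (1.74) and Ccr9 (0.51) were higher and Cox6a2 (-0.73) lower (8.33 to 9.03, against 8.32 to 8.62). Of the rest, 1 of 8 secondary granule and 1 of 4 eosinophil genes were lower, and of 7 mast cell and basophil genes 1 was higher and 2 lower. The part of these marker shifts was not tested here either.

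Across the 3 genotype comparisons, which share no arrays, 21 of the 33 genes (63.6%) were called in none, against 74.5% of all tested genes, and 18 (54.5%) had a change below 0 in all 3, against 18.4% of all. Of the 11 genes called lower at least once, 6 were called lower in 1 population, 4 in 2 and 1 in 3. Whether the genotype change itself differed between populations was tested by interaction terms. The 2 interactions with Lin- + MCSF cells each called 2 of the 33 genes (6.06%), where 7.77% of all genes were called against CMPs and 4.77% against GMPs, and the interaction of GMPs against CMPs called 0 of 33, where 2.5% of all were. At this last comparison the smallest adjusted p was that of Xbp1 (0.58 ± 0.16, adjusted p = 0.0511), so a larger Xbp1 change in GMPs than in CMPs was not shown.

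Of the 4 interaction calls among the 33 genes, 2 were those of Ern1, 1 of Calr and 1 of Xbp1. The Ern1 genotype change in Lin- + MCSF cells was higher than that in CMPs by 1.53 ± 0.19 (adjusted p = 1.92e-05) and than that in GMPs by 1.01 ± 0.19 (adjusted p = 0.00279). Both calls held in every alternative tried. The direction of Ern1 was thus opposite in cultured and in freshly sorted cells, lower by 1.05 and 0.54 in CMPs and GMPs and higher by 0.48 in culture. Calr changed by 0.64 ± 0.13 more in Lin- + MCSF cells than in CMPs (adjusted p = 0.00208), which also held throughout. The Xbp1 change in Lin- + MCSF cells was below that in GMPs by 0.58 ± 0.15 (adjusted p = 0.0223), a call lost without replicate 1 or 2 of either GMP genotype (0.0534 to 0.0657). For Hspa5 the change in Lin- + MCSF cells was higher than in CMPs by 0.49 ± 0.15, which did not pass (adjusted p = 0.0526).

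Outside the 33 genes, 75 further genes of the secretory pathway were tested as a frame. In CMPs 3 of them were called higher (4%) and 3 lower (4%), in GMPs 4 (5.33%) and 8 (10.7%), and in Lin- + MCSF cells 2 (2.67%) and 8 (10.7%). The share called lower in CMPs was thus 30.3% of the 33 genes, 4% of the 75 and 5.44% of all tested genes. None of the 9 genes of ER-to-Golgi traffic was called in any of the 3 comparisons. Their changes in CMPs were all below 0, from -0.44 to -0.01, with a median of -0.23, equal to that of the 33 genes. Their median change was -0.15 in GMPs (-0.32 to 0.22) and -0.01 in Lin- + MCSF cells (-0.3 to 0.26). The median change of the 75 genes was -0.07 in CMPs, -0.08 in GMPs and -0.05 in Lin- + MCSF cells.

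**Figure D3:**
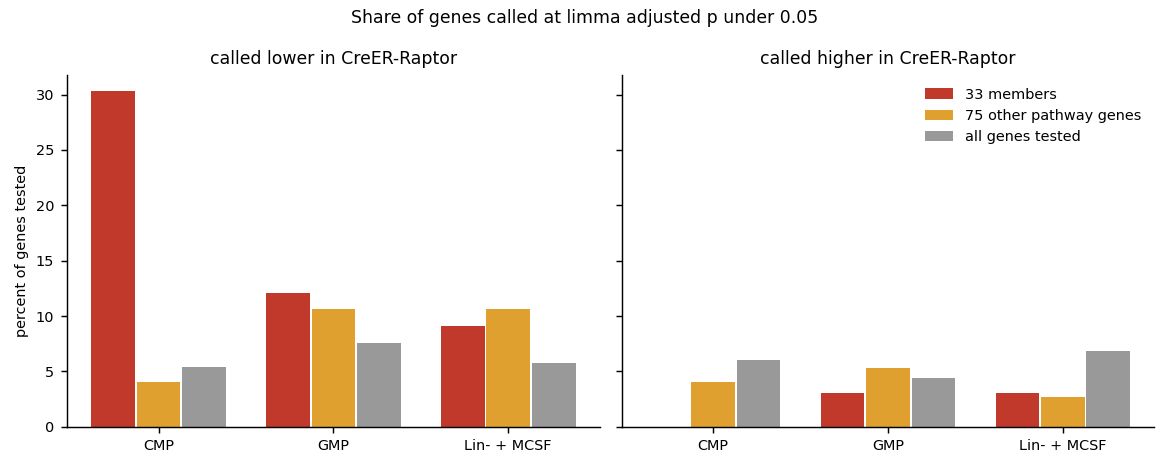
Percent of genes called lower (left) and higher (right) in CreER-Raptor cells at a limma adjusted p under 0.05, by population, for the 33 genes of ER folding, 75 other genes of the pathway and all 16638 tested genes. The 30.3% called lower in CMPs stands above the 5.44% of all genes, and no gene of the 33 was called higher there.

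In CMPs, 3 of 9 genes of the PERK arm were called higher and 0 lower, where 6.01% and 5.44% of all tested genes were. The median change of these 9 was 0.1, against -0.01 over all tested genes. Ddit3, the transcription factor CHOP, read 7.85, 8.16 and 7.99 in CreER-Raptor CMPs, against 7.27, 7.29 and 7.19 in WT CMPs. Ddit3 rose by 0.75 ± 0.14 (adjusted p = 0.000615) with no overlap. Ppp1r15a, the stress-induced subunit of the phosphatase that restores eIF2alpha, read 8.01, 7.91 and 7.8 in CreER-Raptor CMPs, against 7.18, 7.1 and 7.34 in WT CMPs, and rose by 0.70 ± 0.16 (adjusted p = 0.00563). Ppp1r15b, its constitutive counterpart, rose by 0.35 ± 0.11 (adjusted p = 0.0495), a call lost when any 1 of the 6 CMP arrays was left out. Atf4 (-0.05), Trib3 (-0.13) and Chac1 (-0.15) were not called. Uggt1, the glucosyltransferase that returns unfolded glycoproteins to the lectin chaperones, fell by 0.59 ± 0.11 (adjusted p = 0.00051), the oxidase gene Ero1b by 0.54 ± 0.11 (0.00171), and Atf6b, a relative of Atf6, by 0.64 ± 0.16 (0.0082).

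In GMPs, Txndc5, a thioredoxin-like disulfide isomerase of the oxidation and folding list, read 7.67, 7.5 and 7.01 in CreER-Raptor GMPs, against 8.72, 8.71 and 8.75 in WT GMPs, and fell by 1.33 ± 0.17 (adjusted p = 8.36e-06), a larger change than that of any of the 33 genes in GMPs. Ero1b fell by 0.83 ± 0.11 (adjusted p = 1.81e-05) and the reductase gene Dnajc10 by 0.81 ± 0.11 (4.39e-05). All 3 were also lower in Lin- + MCSF cells, by 0.81 ± 0.14 for Txndc5 (adjusted p = 0.000639), 0.47 ± 0.10 for Ero1b (0.00211) and 0.44 ± 0.10 for Dnajc10 (0.00542). Of 11 oxidation and folding genes, 4 fell and 2 rose in GMPs, while Ero1a (0.21), Erp44 (-0.20) and Tmx1 (0.04) were not called. The risers, Fkbp11 (1.05 ± 0.19, adjusted p = 0.000573) and Ppic (0.61 ± 0.16, 0.0169), both peptidyl-prolyl isomerases, are named after their values were seen. Ppic lost the call without replicate 1 of either genotype, WT replicate 2 or CreER-Raptor replicate 3 (adjusted p = 0.0552 to 0.0958).

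In the PERK arm of GMPs, Ppp1r15b (0.45 ± 0.11, adjusted p = 0.0109) and the stress-induced regulator Nupr1 (0.65 ± 0.18, 0.0244) rose and Sesn2, an ATF4 target that inhibits mTORC1, fell by 0.86 ± 0.16 (0.000678). The Nupr1 call was lost without WT GMP replicate 1 (0.141) or 2 (0.0574) or CreER-Raptor GMP replicate 3 (0.116), and that of Ppp1r15b without WT GMP replicate 1 (0.0675) or 2 (0.0591) or CreER-Raptor GMP replicate 2 (0.0645). Ddit3 (0.01), Ppp1r15a (-0.25), Atf4 (-0.04), Trib3 (0.13) and Chac1 (0.48) were not called there. The signal peptidase gene Spcs3 fell by 0.44 ± 0.14 (adjusted p = 0.0386), the translocation gene Tram1 by 0.36 ± 0.11 (0.0387) and the segregase gene Vcp by 0.35 ± 0.11 (0.0321), and these 3 calls were lost without replicate 1 or 2 of either genotype. All 3 were also lost with only the arrays compared in the fit (0.0654 to 0.0794), those of Spcs3 (0.0596) and Tram1 (0.0508) with the replicate block, and that of Vcp with its probe sets averaged, where the change was -0.11 (0.641). In Lin- + MCSF cells, Nupr1 fell by 1.08 ± 0.16 (adjusted p = 9.54e-05) and Trib3, a pseudokinase induced by CHOP, by 0.51 ± 0.14 (0.0222), whereas Ppp1r15a rose by 0.63 ± 0.14 (0.00469), and Ddit3 (0.27), Atf4 (-0.17) and Chac1 (-0.43) were not called. The oligosaccharyltransferase gene Rpn1 fell by 0.42 ± 0.11 (adjusted p = 0.0133), the glucosidase gene Ganab by 0.41 ± 0.11 (0.021) and Atf6b by 0.44 ± 0.13 (0.0369). Left out, WT replicate 2 ended the calls of Trib3 (0.0746), Rpn1 (0.0502), Ganab (0.0741) and Atf6b (0.0977). WT replicate 3 or CreER-Raptor replicate 1 also ended that of Trib3 (0.0642 and 0.085), WT replicate 4 or CreER-Raptor replicate 2 or 4 that of Ganab (0.0551 to 0.0631), and WT replicate 3 or 4 or CreER-Raptor replicate 1, 3 or 4 that of Atf6b (0.0594 to 0.0939).

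Some of these genes differed between populations by the interaction test as well. The Ddit3 change in GMPs was below that in CMPs by 0.74 ± 0.19 (adjusted p = 0.0475), which was lost when any 1 of 11 of the 12 arrays concerned was left out. That of Ppp1r15a was below it by 0.94 ± 0.23 (adjusted p = 0.0277), and its change in Lin- + MCSF cells exceeded that in GMPs by 0.88 ± 0.21 (0.0186). For Ppp1r15a, the call of GMPs against CMPs was lost without 8 of the 12 arrays in turn (0.0534 to 0.0837) and that of Lin- + MCSF cells against GMPs without WT GMP replicate 2 (0.0597) or 3 (0.0709). Txndc5 changed by 1.12 ± 0.24 less, that is further down, in GMPs than in CMPs (interaction -1.12, adjusted p = 0.011).

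Between WT populations, the genes of ER folding were close in freshly sorted GMPs and CMPs. Of the 33, 2 were called higher in WT GMPs (6.06%, against 6.65% of all genes) and 0 lower (against 4.35% of all). Xbp1 averaged 10.65 in WT GMPs and 10.29 in WT CMPs and was higher by 0.37 ± 0.11 (adjusted p = 0.0345). Edem2, a mannosidase-like protein of glycoprotein degradation, averaged 10.27 and 9.94 and was higher by 0.33 ± 0.11 (0.0486). Both calls rested on single arrays and were lost when any of the 6 arrays but WT CMP replicate 3 was left out, as with WT CMP replicate 2 (Xbp1 0.27, adjusted p = 0.192; Edem2 0.23, 0.259).

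WT Lin- + MCSF cells differed from WT CMPs and WT GMPs in most genes of the array, and the 33 genes were no exception. Against WT CMPs, 9 of the 33 were higher (27.3%) and 15 lower (45.5%), where 19.6% and 36% of all genes were. Against WT GMPs, 8 were higher (24.2%) and 16 lower (48.5%), where 20.3% and 36.1% of all were. These 2 comparisons share the cultured arrays. Culture, the cytokine and the wider gate of lineage-negative cells cannot be told apart here.

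Genes with a single probe set went both ways in culture. Atf6 averaged 8.87 in WT Lin- + MCSF cells, against 10.06 in WT CMPs and 10.28 in WT GMPs, and was lower by 1.19 ± 0.11 (adjusted p = 5.78e-09) and 1.41 ± 0.11 (4.1e-10). Edem2 averaged 8.47, against 9.94 and 10.27, and was lower by 1.47 ± 0.10 and 1.80 ± 0.10. Dnajb11 averaged 9.19 in WT Lin- + MCSF cells, against 8.05 and 7.95, and was higher by 1.14 ± 0.12 (adjusted p = 3.9e-08) and 1.25 ± 0.12 (9.38e-09). Hspa5 averaged 9.22, against 10.1 in WT CMPs (-0.87 ± 0.11, adjusted p = 6.62e-07), and Xbp1 9.78, against 10.65 in WT GMPs (-0.87 ± 0.10, adjusted p = 2.82e-07).

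The largest increases in culture, those of Derl2 and Sec61b, were much smaller with the second probe set of each gene. Derl2 was higher by 4.24 ± 0.10 in WT Lin- + MCSF cells than in WT CMPs with the probe set used, and by 0.27 ± 0.12 with the other (adjusted p = 0.0679). Sec61b, a subunit of the translocation channel, was higher by 3.58 ± 0.12 with the one used and by 0.99 ± 0.18 with the other (adjusted p = 7.27e-05). Edem1 was lower by 0.50 ± 0.10 with the one and higher by 3.84 ± 0.11 with the other. The 5 genes with 2 probe sets (Derl2, Edem1, Sec61b, Selenos and Ssr1) thus gave changes 2.59 to 4.92 apart against WT CMPs and 2.69 to 4.86 apart against WT GMPs. In the genotype comparisons the same pairs were 0.01 to 0.45 apart. This was common on the arrays: of 1082 genes with several probe sets, 245 (22.6%) differed by more than 2 log2 units between probe sets in WT Lin- + MCSF cells against WT CMPs, and 2 (0.185%) in WT GMPs against WT CMPs. For these 5 genes the size of the difference between cultured and fresh cells depends on the probe set. The 28 genes with a single probe set, Atf6, Edem2, Dnajb11, Hspa5 and Xbp1 among them, could not be checked in this way, so that the sizes of their differences in culture carry the same doubt. The sources used here do not say whether the cultured arrays were hybridized or processed apart from the others.

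**Figure D4:**
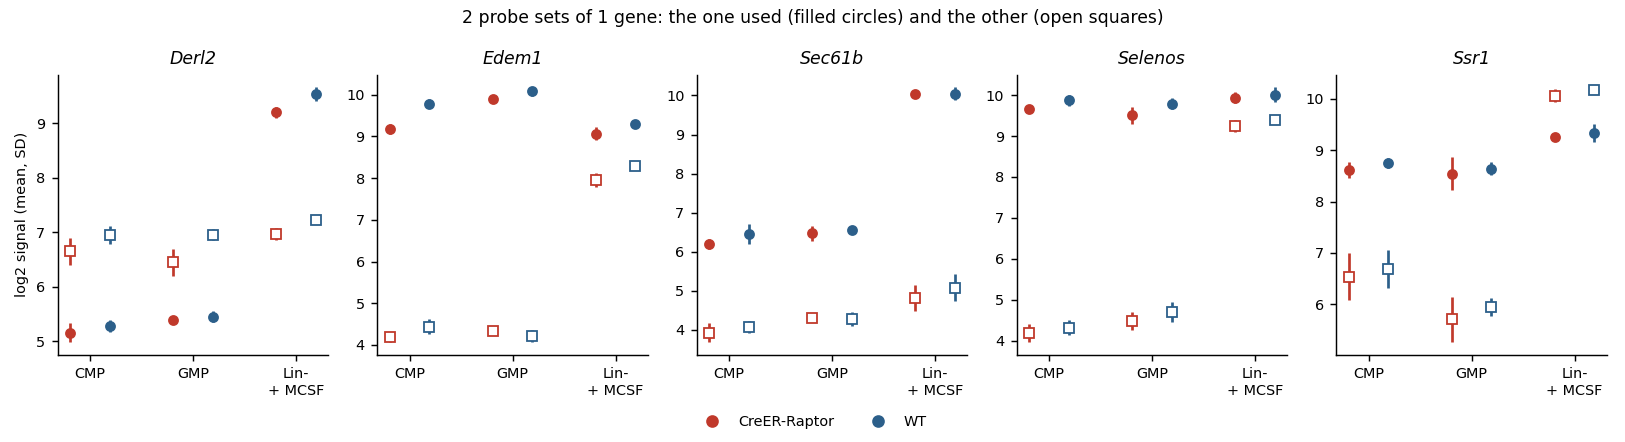
Log2 signal (group mean, SD; vertical axes do not start at 0) of both probe sets of the 5 genes that have 2, by population and genotype; filled circles are the probe set used, open squares the other. Between genotypes the changes of the 2 probe sets of a gene were 0.01 to 0.45 apart, furthest for Derl2 in GMPs (-0.51 and -0.06). In WT Lin- + MCSF cells they were 2.59 to 4.92 apart against WT CMPs and 2.69 to 4.86 against WT GMPs.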

How the data were processed

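Per the labels' protocols, 1 to 5 ng of total RNA from each of 20 samples in 6 groups was turned into biotinylated cDNA with NuGEN kits, and each array was placed in its group by its title. The values the authors deposited are log2 signals, and their steps named per the submitters' processing notes are RMA, Partek 6.6 and limma, with no roles or order given. RMA scales arrays to a common distribution, so that a shift shared by most transcripts is removed. Array medians were 4.76 to 4.91. Detection above background was not assessed, as scanner values were not used here, and precision is limited by the number of arrays.

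Of 41345 probe sets, 23521 carry 1 gene symbol in GEO's platform annotation, 1814 several and 16010 are unnamed here. Each of 22180 genes was read from its probe set of highest mean, and the 16638 genes not below the 25th percentile of single-gene probe sets (log2 3.86) were tested. A single fit in limma 3.58.1 (R 4.3.3, eBayes without trend) gave 6 group means with 14 residual degrees of freedom. Changes are CreER-Raptor minus WT, an interaction, or the first WT population minus the second, over 9 comparisons. P-values were adjusted by Benjamini-Hochberg over all genes tested, and a gene was called under 0.05. The code of the fit was tried on simulated data with independent noise for each gene and no effects of single arrays. Such data cannot show how far the calls hold on the real arrays.

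The 34 genes, the further pathway genes and the cell type markers were chosen with earlier results of these data known, and so were the tests. Values of every array are given for up to 8 called genes of smallest p in a genotype comparison, group means for up to 4 in an interaction and 6 in a WT comparison, and of the further pathway genes up to 3 called in each functional group, with Ddit3, Atf4, Trib3, Chac1, Ppp1r15a and Rptor always. Motifs were searched in RefSeq promoters of assembly GRCm38.p6. Alternatives were other filters on dim signal, averaged probe sets, only the arrays compared, a replicate block, array weights, centred arrays, repeated quantile normalization, trended and robust eBayes, each array left out, and, chosen after seeing the data, the second probe set of a gene. Figures were drawn with Python 3.11.15 and matplotlib 3.10.9.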

Additional observations from a re-analysis of the deposited data

Results flagged for a closer look

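In groups of 4 arrays, 1 array stood far from the other 3 for 3 of the 33 genes of ER folding, out of 66 checks of a gene in a group, and chance alone marks about 1 in 20. Ern1 was 8.55 in WT Lin- + MCSF replicate 3, with the other WT arrays at 9.05 to 9.09. Xbp1 was 9.74 in CreER-Raptor Lin- + MCSF replicate 4, with the others at 9.91 to 9.93. Derl1 was 8.63 in WT Lin- + MCSF replicate 1, with the others at 9.11 to 9.21.

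The genotype change differed between populations, by the interaction term of the limma fit at an adjusted p under 0.05, for 3 of the 33 genes. The interactions of Lin- + MCSF cells each called 6.06% of the 33, where 7.77% of all genes were called against CMPs and 4.77% against GMPs. That of GMPs against CMPs called 0 of the 33 and 2.5% of all genes. These shares were near the background. For Ern1 the change in Lin- + MCSF cells was 1.53 above that in CMPs and 1.01 above that in GMPs. For Calr it was 0.64 above that in CMPs, and for Xbp1 the interaction against GMPs was -0.58.

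Among the further pathway genes named, the interaction of GMPs against CMPs was -0.74 for Ddit3, -0.94 for Ppp1r15a and -1.12 for Txndc5. The interaction of Lin- + MCSF cells against CMPs was 0.47 for Uggt1 and -1.36 for Nupr1, a stress-induced chromatin protein. Against GMPs it was -1.73 for Nupr1, -0.91 for Chac1, which degrades glutathione, 0.88 for Ppp1r15a and -0.52 for Ppp1r15b. With each array left out in turn, the calls of Nupr1 and Txndc5 held, those of Ddit3, Uggt1, Ppp1r15b and, for GMPs against CMPs, Ppp1r15a were lost in most cases, and that of Chac1 was lost without WT GMP replicate 1 (0.0737) or 2 (0.0597) or CreER-Raptor GMP replicate 2 (0.0921).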

How the results depend on the processing

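The number of the 33 genes called in a comparison kept within 1.5 times its main value in most settings. With array weights it was 12 in place of 5 in GMPs (5328 in place of 1980 over all genes), 6 in place of 0 for the interaction of GMPs against CMPs, and 8 in place of 2 for WT GMPs against WT CMPs. With only the arrays compared in the fit it was 2 in place of 4 in Lin- + MCSF cells (899 in place of 2088 over all genes), 1 for that interaction and 5 for the WT comparison. The 50th percentile filter gave 1 for that interaction and 4 for the WT comparison, trended and robust eBayes gave 1 and 5, centred arrays gave 4 and no filter gave 1 for the WT comparison. With each array left out in turn the counts were 7 to 10 in CMPs, 2 to 6 in GMPs, 2 to 6 in Lin- + MCSF cells, 0 to 1 for the interaction of GMPs against CMPs, 2 to 5 and 1 to 2 for those of Lin- + MCSF cells against CMPs and GMPs, and 0 to 3 for WT GMPs against WT CMPs. Over all genes, CMPs gave 3048 calls with array weights and 1229 without CreER-Raptor CMP replicate 2, against 1905, GMPs 1183 without WT GMP replicate 2 and 1256 without CreER-Raptor GMP replicate 2, and Lin- + MCSF cells 1316 with array weights. The interaction of GMPs against CMPs gave 654 with only its arrays, 1980 with array weights and 228 to 647 with an array left out, against 416. That of Lin- + MCSF cells against GMPs gave 1330 with array weights and 488 to 842, against 793, and WT GMPs against WT CMPs gave 2852, 3995 and 803 to 1551, against 1831.

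The second probe set of Edem1 reversed it in cultured against fresh WT cells, 3.84 against CMPs and 4.06 against GMPs, and the cause was not tested. With the replicate number as a block, CMPs, GMPs and Lin- + MCSF cells gave 9, 5 and 6 called genes, and Hsp90b1 lost its call in CMPs. By the rule that each pair correlate above 0.1, the numbers were not taken to pair the samples. With 3 or 4 arrays a group, this rule cannot exclude a pairing. Deviations of same-numbered CreER-Raptor and WT arrays correlated at -0.17 to 0.12 in CMPs and -0.34 to -0.03 in GMPs. In Lin- + MCSF cells they correlated at -0.09 to 0.06. Differently numbered arrays of the 2 genotypes correlated at -0.19 to 0.25 in CMPs, -0.04 to 0.34 in GMPs and -0.14 to 0.08 in Lin- + MCSF cells. Same-numbered GMP and CMP arrays correlated at 0.05 to 0.18 in CreER-Raptor and 0.01 to 0.09 in WT. Differently numbered ones correlated at -0.17 to 0.04 in CreER-Raptor and -0.15 to 0.08 in WT. The arrays were only 3 or 4 a group, and low probe sets such as those of Derl3 have no measured detection.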
